A study of Mus musculus with 16 samples.

Results

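To determine how open chromatin differs between memory and effector T cells that lack the pyruvate dehydrogenase complex, the ATAC-seq peak lists of 4 TPdh-/- memory T cell (TM) libraries were compared with those of 4 TPdh-/- effector T cell (TE) libraries. The 8 libraries were chosen by their sample titles, out of 16 in the series, and only autosomal peaks were used. Their peaks formed 412336 of the 510542 regions made by merging the peaks of all 16 lists. A region was called TM-only when all 4 TPdh-/- TM lists and no TPdh-/- TE list had a peak there, and TE-only in the reverse case. There were 88 TM-only and 8 TE-only regions with all peaks. With the best 32144 peaks of each list, ranked by the −log10 q-value that the authors deposited, there were 53 TM-only and 10 TE-only regions.

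TPdh-/- mice carry a floxed Pdha1, the gene of the E1 alpha subunit of the complex, and a Cre driven by the Cd4 promoter, so that deletion takes place in the T cell lineage. Wild-type mice (WT, TPdh+/+ in the labels) were the controls of the study. Per the study's methods, spleen cells of adult male and female mice were activated with antigen in every group, and were then kept in interleukin-2 to give TE or in interleukin-15 to give TM. Memory and effector are thus names of culture conditions, and the age of the mice behind each library is not in the labels. The labels also do not say that the 4 libraries of a group came from separate animals, so that p-values measure the spread between libraries, which may be technical.

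Pyruvate dehydrogenase turns pyruvate from glycolysis into acetyl-CoA in mitochondria. Acetyl-CoA feeds the TCA cycle and is also the donor of acetyl groups for histones, and acetylated histones mark open promoters and enhancers. In ATAC-seq a transposase cuts accessible DNA, so that peaks lie mostly at promoters and at distal elements where factors such as RUNX, ETS, AP-1 and TCF proteins bind in T cells.

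The 200 bases around the strongest summit are shown for 2 leading TM-only promoters, 3 leading TM-only regions outside promoters, 2 leading TE-only regions and 1 region that was TE-only in equal-sized lists alone. They are shown as examples of well ranked members and of the kinds of sequence in each class. The sequence is from RefSeq for GRCm38 and is written in lower case. Capitals mark matches to the motifs searched on both strands, which were RUNX (TGTGGT), ETS (GGAAGT), AP-1 (TGANTCA), TCF/LEF (CTTTGA), T-box (GGTGTGA), IRF (GAAANNGAA), SP/KLF (GGGCGG), NF-Y (CCAAT), NRF1 (GCATGCGC), CRE (TGACGTCA) and CTCF (AGGNGGC). In the Gm49792 region the NF-Y letters share a base with a RUNX match.
Crot promoter, TM-only (chr5:8996772-8996971, plus strand): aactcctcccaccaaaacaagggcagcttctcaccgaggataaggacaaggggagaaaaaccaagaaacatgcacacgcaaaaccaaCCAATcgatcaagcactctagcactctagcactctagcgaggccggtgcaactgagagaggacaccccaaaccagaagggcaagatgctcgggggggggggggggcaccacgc
Nudt9 promoter, TM-only (chr5:104046668-104046867, plus strand): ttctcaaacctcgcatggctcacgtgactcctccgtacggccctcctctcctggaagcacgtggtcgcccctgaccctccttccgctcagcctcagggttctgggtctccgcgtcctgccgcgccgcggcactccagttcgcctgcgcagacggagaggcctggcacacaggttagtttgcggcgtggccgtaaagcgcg
Diaph3 intron, TM-only (chr14:86736708-86736907, plus strand): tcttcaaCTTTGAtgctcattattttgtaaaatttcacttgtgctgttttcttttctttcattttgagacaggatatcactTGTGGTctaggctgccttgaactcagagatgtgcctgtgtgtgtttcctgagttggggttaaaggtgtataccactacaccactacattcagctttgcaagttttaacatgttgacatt
region near Gm12891, TM-only (chr4:122934097-122934296, plus strand): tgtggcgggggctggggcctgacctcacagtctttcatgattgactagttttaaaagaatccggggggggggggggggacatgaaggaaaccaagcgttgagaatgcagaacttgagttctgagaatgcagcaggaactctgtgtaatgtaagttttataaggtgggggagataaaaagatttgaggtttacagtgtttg
region near Gm38122, TM-only (chr1:189608965-189609164, plus strand): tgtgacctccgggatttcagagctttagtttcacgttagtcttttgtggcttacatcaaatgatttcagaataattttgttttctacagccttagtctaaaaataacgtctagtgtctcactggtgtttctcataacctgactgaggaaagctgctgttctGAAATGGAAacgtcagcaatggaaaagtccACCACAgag
region near Gm49792, TE-only (chr17:3026980-3027179, plus strand): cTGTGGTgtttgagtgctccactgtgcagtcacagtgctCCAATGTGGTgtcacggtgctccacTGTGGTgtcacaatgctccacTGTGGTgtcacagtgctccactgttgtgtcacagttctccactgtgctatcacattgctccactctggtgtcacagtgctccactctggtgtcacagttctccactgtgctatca
region near Gm47776, TE-only (chr13:114943346-114943545, plus strand): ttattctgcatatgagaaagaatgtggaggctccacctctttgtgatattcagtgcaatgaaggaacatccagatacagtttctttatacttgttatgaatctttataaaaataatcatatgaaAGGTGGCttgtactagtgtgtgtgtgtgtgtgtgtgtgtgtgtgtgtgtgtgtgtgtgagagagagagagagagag
region near Gm24602, TE-only in equal-sized lists (chr8:102193549-102193748, plus strand): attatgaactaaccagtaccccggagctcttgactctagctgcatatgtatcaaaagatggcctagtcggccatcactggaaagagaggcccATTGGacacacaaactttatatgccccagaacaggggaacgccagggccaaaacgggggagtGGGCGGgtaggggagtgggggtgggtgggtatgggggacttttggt

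The Crot promoter held 1 NF-Y match and the Nudt9 promoter none of the motifs. The Diaph3 intron held TCF/LEF and RUNX letters, and the region near Gm38122 held IRF letters and RUNX letters on the minus strand. The Gm49792 region is a tandem repeat in which the RUNX letters recur 4 times. Short motifs are common: over windows of 200 bases in all 412336 regions, NF-Y letters were in 26.3%, RUNX in 14.3%, TCF/LEF in 13.6%, ETS in 10.996%, CTCF in 8.30%, IRF in 7.20%, AP-1 in 5.59%, SP/KLF in 3.67%, T-box in 2.58%, NRF1 in 0.376% and CRE in 0.147%. A match is a description of the letters and does not show binding.

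The TPdh-/- libraries were shallow and unequal. They held 63790, 84359, 58421 and 64501 autosomal peaks in TM replicates 1 to 4 and 34955, 32144, 76520 and 55033 in TE replicates 1 to 4. TE replicate 3 thus had more peaks than 3 of the 4 TM libraries. Background coverage, which measures fragments per base of the genome, was 0.186 to 0.261 in TM and 0.173 to 0.445 in TE. TM libraries called peaks from 3 fragments at the summit, TE replicates 2 and 3 from 3, and TE replicates 1 and 4, which had the highest coverage, from 4. Peaks of 4 or fewer fragments made up 63.2% to 69.3% of each TM list and 25.5% to 76.0% of each TE list. At such pileups counting error alone is large.

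Regions shared between replicates were few. Most regions, 372259 of 412336, had a peak in a single library. The bases covered in both of a pair of lists, divided by those covered in either, averaged 1.96% within TM (1.42% to 2.84%), 1.37% within TE (0.894% to 2.16%) and 1.45% between the groups (0.608% to 2.66%). These ranges overlapped, so libraries of a group were not set apart from those of the other group by this measure. No test was run on them.

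Regions open in TM libraries alone outnumbered those open in TE libraries alone when all 8 libraries were used, and the direction turned without TE replicate 2. The 88 TM-only regions were 2.34% of the 3755 regions that at least 4 of the 8 libraries held, and the 8 TE-only regions were 0.213%. The lean went through all of the regions that exactly 4 libraries held: 720 were held by 3 TM and 1 TE libraries, 830 by 2 of each, and 191 by 1 TM and 3 TE libraries. Just outside the rule lay 269 regions of 4 TM and 1 TE libraries and 650 of 3 TM and none, against 13 and 336 in the opposite direction. All 8 libraries held 90 regions. These counts move with the lengths of the lists, which were 1.44 times longer in TM by geometric mean, and the part of list length in them was not tested.

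**Figure D1:**
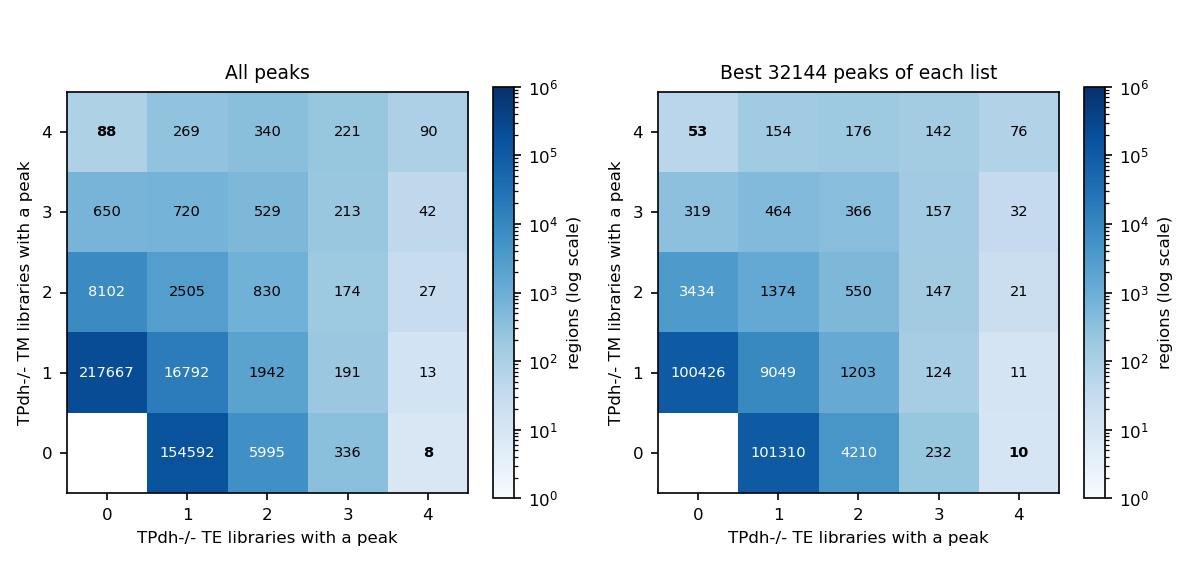
Number of autosomal regions by how many TPdh-/- TM libraries (vertical axis) and TPdh-/- TE libraries (horizontal axis) had a peak, with all peaks (left) and with the best 32144 peaks of each list (right). Colour is the count on a log scale, and bold numbers are TM-only (88 and 53) and TE-only (8 and 10) regions.

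With lists of equal size TM-only regions still outnumbered TE-only regions, by a smaller margin. The 53 TM-only regions were 2.13% of the 2483 regions held by at least 4 libraries, and the 10 TE-only regions were 0.403%. Of the regions held by exactly 4 lists, 464 were held by 3 TM and 1 TE and 124 by 1 TM and 3 TE. Regions of 2 libraries of a single group and none of the other turned the other way, from 8102 for TM and 5995 for TE with all peaks to 3434 and 4210. Only part of the membership was shared: 32 regions were TM-only both ways, which is 36.4% of the 88 and 60.4% of the 53, and 4 were TE-only both ways, which is 50% of the 8 and 40% of the 10. A region that was new in equal-sized lists had peaks below the rank limit in the other group, in a median of 1 library. With all peaks, 33 regions were TM-only when summits had to lie within 100 bp of the strongest one. Membership also rested on single libraries. With all peaks there were 293, 288, 214 and 207 TM-only regions without TM replicates 1 to 4, and 113, 93, 167 and 248 without TE replicates 1 to 4. There were 8, 10, 11 and 16 TE-only regions without TM replicates 1 to 4, and 82, 147, 71 and 68 without TE replicates 1 to 4. Without TE replicate 2, the shallowest library, TE-only regions thus outnumbered TM-only regions, 147 against 93, and in equal-sized lists 110 against 57. Leaving out a library eases the rule for its own group, since 3 lists are then enough.

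TM-only regions were mostly promoters of protein-coding genes. A promoter region had its summit within 1000 bp of an annotated transcription start. Of the 88 TM-only regions, 60 (68.2%) were promoters, 56 of them of coding genes, 16 were in introns, 12 between genes and 0 in exons. The median summit lay 167.5 bp from a start and the median region was 849 bp wide. The 1741 other regions held by exactly 4 libraries were much alike, with 63.1% promoters, 15.5% introns and 20.5% intergenic regions. Median GC content over 200 bases at the summit was 58.25% in TM-only and 58.5% in the other regions of 4 libraries. Masked repeats covered most of the 200 bases in 8 TM-only regions (9.09%) and in 18.8% of the others.

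The promoter share varied with the libraries that held a region. It was 8.37% over all regions, 45.1% in regions of 3 TM and no TE libraries, and 13.7% in regions of 3 TE and no TM libraries. Among the regions of 4 libraries it was 71.8% with 3 TM and 1 TE, 61.6% with 2 of each and 36.6% with 1 TM and 3 TE. The share of regions lying mostly in masked repeats went the other way, at 9.58%, 21.9% and 39.8% in the same order. Regions of all 8 libraries were 35.6% promoters and mostly repeats (65.6%), and those of 1 TM and 4 TE libraries were 38.5% promoters. These are shares over regions of the same 8 libraries and were not tested.

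**Figure D2:**
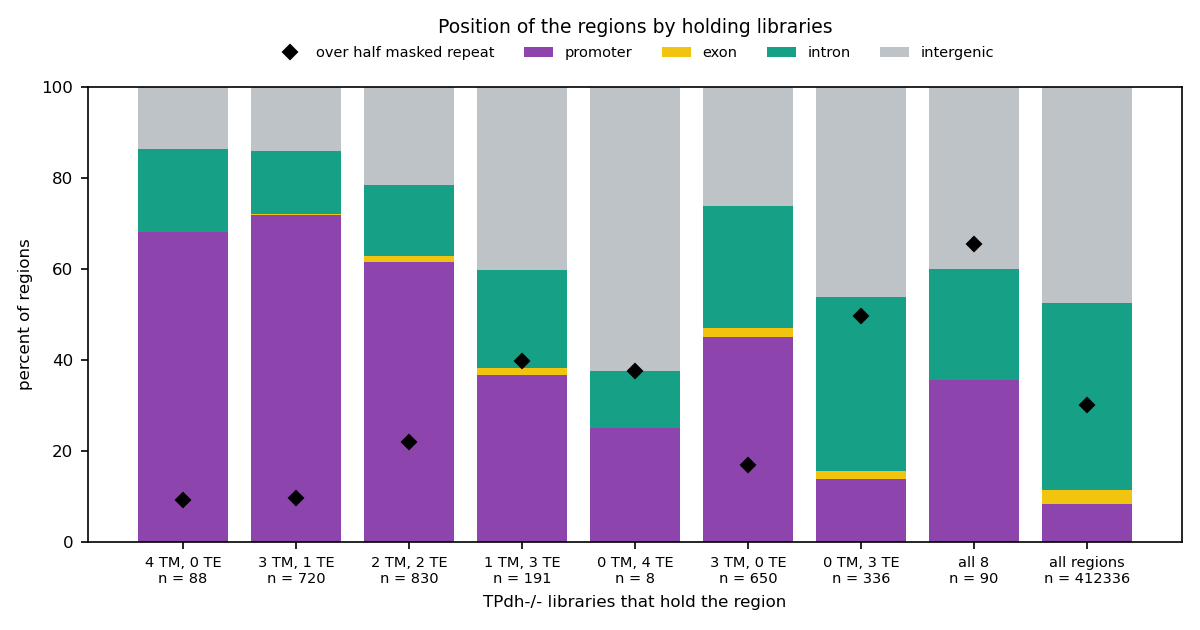
Share of regions (percent) at promoters, exons, introns and between genes by the TPdh-/- libraries that held them, with n regions under each bar. Diamonds show the share of regions with masked repeat over most of 200 bases at the summit. The promoter part falls from 68.2% in TM-only to 25% in TE-only regions while the diamonds rise from 9.09% to 37.5%.

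The leading TM-only promoters had mixed roles, and of the nearest genes of the 88 TM-only regions 2 were in any of the gene lists (Crot and Kat2b), beside 67 of 3570 for regions of at least 4 libraries. Peaks were ranked by q-value within each list, and a region by its lowest rank among the 4 TM libraries. The values below are fragments at the summit in TM replicates 1 to 4, and no TE list had a peak there. Crot encodes the peroxisomal carnitine octanoyltransferase, which passes medium-chain acyl groups to carnitine, and its promoter (chr5:8996665-8997443), the best ranked of all, had 9, 11, 13 and 21 fragments. Replicate 4 was the highest and replicate 1 the lowest, and fold enrichment over the local background was 8.11 to 14.5. Nudt9 encodes an ADP-ribose hydrolase of mitochondria, and its promoter (chr5:104046489-104047386) had 10, 8, 10 and 10 fragments. Cryz encodes a quinone reductase, and its promoter (chr3:154596179-154597552) had 11, 10, 8 and 13. Lpcat4 encodes an acyltransferase that remodels phospholipids, and its promoter (chr2:112239152-112240034) had 5, 6, 6 and 10. Slc46a3 encodes a transporter of the lysosomal membrane, and its promoter (chr5:147894311-147894989) had 6, 8, 6 and 6.

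Among the other leading promoters, Card6 encodes a protein with a caspase recruitment domain, and its promoter (chr15:5108140-5109324), with 8, 11, 9 and 15 fragments, was 75% masked repeat at the summit. Pde4d encodes a phosphodiesterase that breaks down cyclic AMP, a brake on T cell activation, and its promoter (chr13:109902613-109903868) had 6, 6, 9 and 10. Pcbp3 encodes a poly(C) RNA-binding protein and its promoter (chr10:76961453-76962713) had 9, 8, 14 and 7. Tnks1bp1, whose product binds tankyrase, had 7, 6, 8 and 8 fragments at its promoter (chr2:85047743-85048580). Rgs9bp, known as an anchor of a G protein regulator in photoreceptors, had 6, 6, 9 and 7 (chr7:35585456-35586280). These leading promoters thus spanned metabolism, signalling and genes with no known T cell role.

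Outside promoters the strongest TM-only region was in an intron of Diaph3, which encodes an actin-nucleating formin. It lay at chr14:86736409-86737076, 12036 bp from a start, and had 13, 7, 10 and 18 fragments. A region between genes near the pseudogene Gm12891 (chr4:122933808-122934303) had 8, 7, 11 and 14. A region near Gm38122 (chr1:189608724-189609998), a gene model of unknown coding status, had 9, 6, 8 and 16. Replicate 4 was the highest at all 3. A region near Cbr4 (chr8:61450528-61452066), a reductase gene of mitochondrial fatty acid synthesis, had 5, 6, 6 and 10, and one in an intron of Rnf141 (chr7:110796420-110797120), a RING finger gene, had 7, 5, 8 and 6. RUNX letters stood in the windows of Diaph3, Gm38122, Cbr4 and Rnf141.

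Some lower ranked TM-only regions lay at genes with known roles in lymphocytes or chromatin, and these were chosen after their values were seen. Klf4, a quiescence factor of T cells, had 5, 8, 16 and 3 fragments at its promoter (chr4:55532317-55533110), and replicate 4 was at the lowest pileup that its list called. It was not among the 53 TM-only regions of equal-sized lists. Kat2b, a histone acetyltransferase gene, had 6, 6, 7 and 4 in an intron (chr17:53586858-53588019). Elsewhere in Kat2b or its flanks of 5000 bp, TE replicates 1, 3 and 4 had peaks of up to 6, 4 and 8 fragments. Gm10717 was the only TM-only region with at least 10 fragments in every TM library (18, 26, 33 and 22), and it was 92% masked repeat and its fold enrichment was 2.316 to 3.599.

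**Figure D3:**
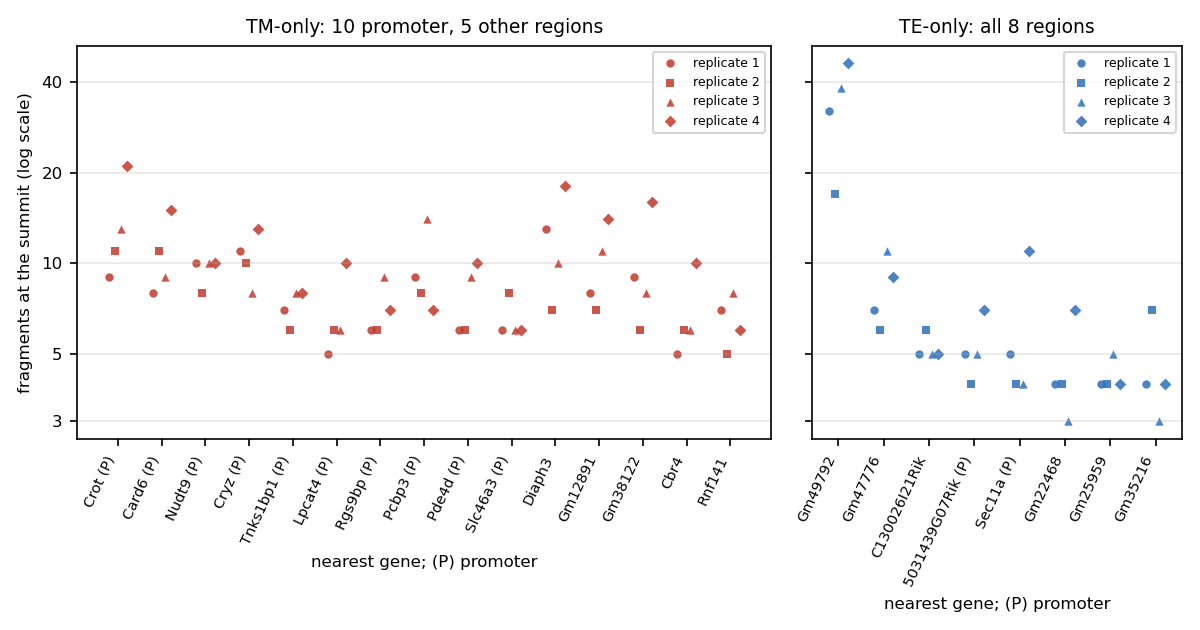
Fragments at the summit (log scale) in each TPdh-/- library for the 10 best ranked TM-only promoters (P) and 5 other TM-only regions (left, 4 TM libraries) and for all 8 TE-only regions (right, 4 TE libraries), with a point per replicate. Most points lie between 4 and 21 fragments, and Gm49792 reaches 46.

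TE-only regions were mainly distal, as were all regions. Promoters made up 25% of them, against 8.37% over all regions and 63.1% of the other regions of 4 libraries. Of the 8, 2 were promoters, 1 was in an intron and 5 were between genes, the median summit was 13068.5 bp from a start, and masked repeat covered most of the window in 3 (37.5%, against 30.1% over all regions). The strongest lay near the pseudogene Gm49792 at chr17:3027011-3027227, with 32, 17, 38 and 46 fragments in TE replicates 1 to 4. It is the tandem repeat printed above, 81.5% masked, and its fold enrichment was 4.50 to 6.59. A region near the pseudogene Gm47776 (chr13:114943400-114943724) had 7, 6, 11 and 9 fragments, and an intron of C130026I21Rik (chr1:85226553-85226776), wholly masked repeat, had 5, 6, 5 and 5. Reads with other alignments had been removed by the authors, which bears on copies of repeats, and the part of repeats in these peaks was not tested.

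Only 2 TE-only regions were promoters. Sec11a encodes a catalytic subunit of the signal peptidase of the endoplasmic reticulum, and its promoter (chr7:80947398-80948021) had 5, 4, 4 and 11 fragments. TE replicate 4 was well above the others there. The uncharacterised gene 5031439G07Rik (chr15:84987955-84988349) had 5, 4, 5 and 7. The other 3, between genes near Gm22468, Gm25959 and Gm35216, had 3 to 7 fragments in each TE library. All 3 were seen in no WT library.

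Members of both classes were weak in at least 1 library. The lowest pileup among the holding libraries had a median of 4 in TM-only regions (3 to 18) and of 4 in TE-only regions (3 to 17). It was 4 or fewer in 60 of the 88 and in 5 of the 8. TE replicate 2 listed no peak under 17.3 times its background coverage, the highest such floor of the TE libraries. In 48 of the 88 TM-only regions all 4 TM pileups were above that multiple of their own coverage. In the others a signal of the same relative height could have fallen below the floor of TE replicate 2, while the floors of TE replicates 1, 3 and 4 were lower, at 9.54, 11.6 and 8.99 times coverage. Of the 8 TE-only regions, 2 passed the like floor of TM, 16.1 times coverage. With equal-sized lists 52 of 53 TM-only regions passed the floor of 17.3 times coverage, and 1 of 10 TE-only regions passed that of the TM lists, which rose to 21.5 times coverage.

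Equal-sized lists changed the promoters of both classes. TM-only promoters went from 60 to 34 and TE-only promoters from 2 to 3, and the Sec11a promoter was no longer TE-only. Lancl1, which encodes a glutathione-binding protein, was the best ranked TM-only addition, with 8, 10, 8 and 8 fragments in TM at its promoter (chr1:67038657-67039674) and a peak of 4 fragments below the rank limit in TE replicate 4. Of the 53 TM-only regions, 34 (64.2%) were promoters and 5 lay mostly in repeats. The TE-only additions included the promoter of Tnrc6c (chr11:117654120-117655149), a gene of microRNA-guided silencing, with 7, 4, 5 and 17 fragments in TE and 4 in TM replicate 4. Gm24602 (chr8:102193548-102193723), a repeat, had 12, 4, 13 and 8 fragments in TE, and 4 and 3 in TM replicates 1 and 4. Chosen after its values were seen, Gls2, a glutaminase gene of mitochondria, had 6, 4, 9 and 17 in TE at its promoter (chr10:128194085-128194731) and 3 in TM replicate 4. Over the gene and flanks of 5000 bp, TM replicates 2 to 4 had peaks of up to 3, 6 and 9 fragments with all peaks. In 2 TM libraries a summit lay within 1000 bp of a start of Gls2. Further TE-only additions, near Pudp and Gm21182, lay in repeats, and 6 of the 10 did in all (60%). Below the rank limit, the Pudp region had 4, 4 and 3 fragments in TM replicates 1 to 3. The Gm21182 region had 3 in TM replicate 4.

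Of the 11 motifs searched outside promoters, RUNX and TCF/LEF are given first and were chosen after their values were seen. RUNX letters stood in 14 of 28 such windows (50%), against 23.6% in the other non-promoter regions of 4 libraries and 14.4% over all non-promoter regions. Regions of 4 TM and 1 TE libraries, which are not TM-only, held them in 23 of 59 (38.98%). Among regions without a TE peak the share was 14.3%, 15.8% and 22.4% with 1, 2 and 3 TM libraries. Among regions without a TM peak it was 14.4%, 14.9% and 16.2% with 1, 2 and 3 TE libraries, and 1 of 6 with all 4. Outside repeats it was 13 of 23 (56.5%) in TM-only regions. TCF/LEF letters, the site of Tcf7 and Lef1, factors of memory T cells, stood in 8 of 28 (28.6%) TM-only windows, in 12.6% of the others of 4 libraries and in 13.8% over all non-promoter regions. They stood in 7 of 59 (11.9%) regions of 4 TM and 1 TE libraries, in 16.2% of those of 3 TM and in 9.31% of those of 3 TE libraries. Of the others, AP-1 letters stood in 4 of 28 TM-only windows (14.3%, against 7.31% in the other regions of 4 libraries), ETS in 5 (17.9% against 10.6%) and NF-Y in 4 (14.3% against 20.8%). IRF and SP/KLF letters stood in 3 each (10.7%, against 5.75% and 5.44%), and T-box, CTCF, NRF1 and CRE letters in none (against 3.89%, 10.6%, 0.622% and 0%). With equal-sized lists RUNX letters stood in 9 of 19 (47.4%) TM-only and 2 of 7 (28.6%) TE-only windows, against 24.9% of the others. TCF/LEF letters stood in 5 of 19 (26.3%) and 1 of 7 (14.3%), against 12.6%. With all peaks they stood in none of the 6 TE-only windows and, outside repeats, in 6 of 23 (26.1%) TM-only windows.

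**Figure D4:**
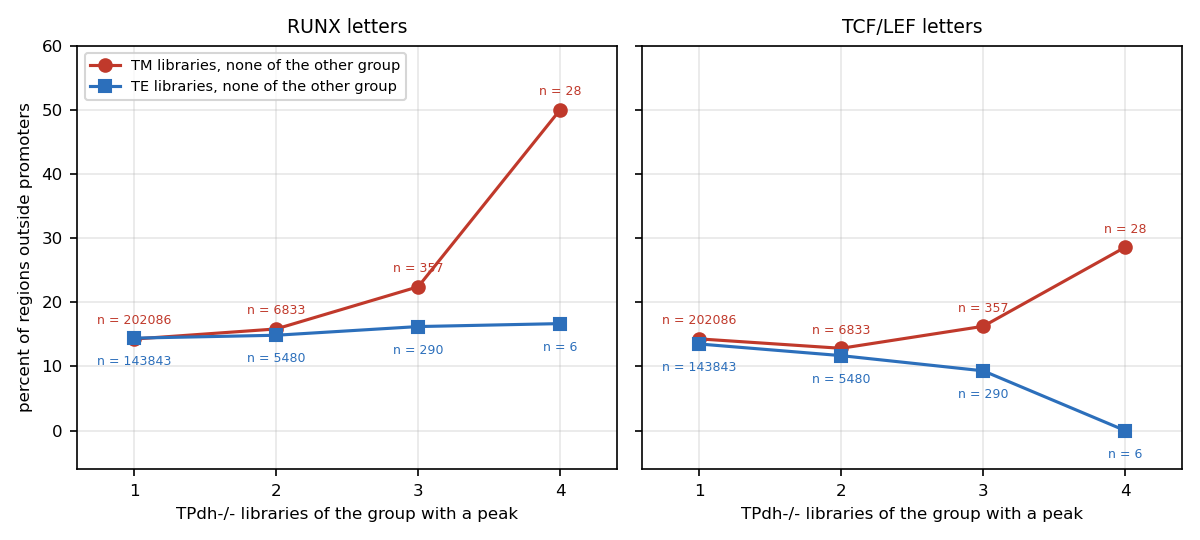
Share of non-promoter regions (percent) whose 200 bases at the summit hold RUNX (TGTGGT, left) or TCF/LEF (CTTTGA, right) letters, by the number of TPdh-/- libraries of 1 group with a peak and none of the other group, with n regions at each point. The RUNX share of regions held in TM reaches 50% at 4 libraries, while that of regions held in TE is 16.7%, from only 6 regions.

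In TM-only promoters SP/KLF letters, the GC box, stood in 29 of 60 windows (48.3%), against 60.7% of promoters in the other regions of 4 libraries and 20.1% of all promoter regions. RUNX letters stood in 5 of 60 (8.33%), against 8.29% and 13.04% in the same order. By family, 9 of the 56 coding genes with TM-only promoters (16.1%) belonged to any of the families counted, against 20.7% of 2380 genes whose promoters at least 4 libraries held. Solute carriers had 3 members (Slc12a2, Slc35a3 and Slc46a3), 5.36% of the 56 against 1.64%. The other members were Zfp160 and Zfp418, Rpl21, Rab28, Ap4m1 and Ccnb2. Counts this small carry no test, and in equal-sized lists Slc46a3 alone of the solute carriers was TM-only.

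Per library, no difference between TM and TE in the number or the position of peaks passed the test. Promoter peaks were 10.9%, 9.35%, 13.3% and 14.2% of the lists in TM and 9.79%, 7.75%, 10.1% and 13.7% in TE, and the groups overlapped. The mean was 11.95% ± 2.22 (SD, n = 4) for TM and 10.3% ± 2.46 for TE (by a two-sided exact permutation, p = 0.371, adjusted 0.464 over 5 tests). In lists of equal size it was 14.8% ± 3.05 against 11.7% ± 3.81 (exact permutation p = 0.286, adjusted 0.464). The log2 number of peaks was 16.03 ± 0.23 and 15.51 ± 0.59 (exact permutation p = 0.2, adjusted 0.464). Without TE replicate 3 the difference in log2 peaks was 0.76 instead of 0.52, and its unadjusted exact p was 0.0286, the smallest that the design can give. Intron shares were 39.1% ± 1.65 for TM and 40.7% ± 1.59 for TE (exact permutation p = 0.2, adjusted 0.464). Intergenic shares were 46.0% ± 0.529 and 46.3% ± 0.810 (exact permutation p = 0.6).

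WT peaks took part in merging peaks into regions but were not counted when a region was called TM-only or TE-only, and merged over the 8 TPdh-/- lists alone there were 89 TM-only and 8 TE-only regions. How many of the regions WT lists held was then tested. TM-only regions were held in 45.5%, 11.4%, 7.95% and 36.4% of cases in WT TM replicates 1 to 4 and in 45.5%, 53.4%, 11.4% and 31.8% in WT TE replicates 1 to 4. The groups overlapped. The mean was 25.3% ± 18.5 (SD, n = 4) in WT TM and 35.5% ± 18.4 in WT TE (two-sided exact permutation p = 0.514, adjusted 0.571 over 8 tests). The mean was thus lower in WT TM than in WT TE, by less than the spread within each group. With the best 2270 autosomal peaks of each WT list, the share was 3.13% ± 2.52 in WT TM and 15.1% ± 3.64 in WT TE. The groups did not overlap, and the difference did not pass after adjustment (exact permutation p = 0.0286, adjusted 0.0762). The other regions of 4 libraries moved in parallel, 3.04% and 16.7%. Within a WT library, the share of TM-only regions minus that of those others was -2.42 to 6.42 points, and this measure had a mean of 0.356 in WT TM and 0.632 in WT TE (exact permutation p = 1).

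Single members differed in WT. The Diaph3 intron had a peak in 3 of 4 WT TM libraries and in no WT TE library, and the region near Cbr4 in 3 and 1. The Crot promoter was held by 1 WT TM and 3 WT TE libraries, Rgs9bp by 2 and 4, and Pde4d and Card6 by none and 2. The region near Gm38122 was in no WT list. Of the 60 TM-only promoters, WT TM libraries held 28.3% ± 19.7 (n = 4) and WT TE libraries 46.7% ± 22.3. Of the 28 regions outside promoters they held 18.8% ± 15.8 and 11.6% ± 10.7 (exact permutation p = 0.257 and 0.543). The WT TE lists were deeper and richer in promoters than the other lists, with a mean promoter share of 56.97% against 12.1% in WT TM, and the part of this in the shares was not tested. In all, 16 of the 88 TM-only regions were in no WT list, beside 340 of the 1741 other regions of 4 libraries and 375712 of all 412336 regions.

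Of the 8 TE-only regions, 3 were in any WT list. They were held in 12.5% of cases, 1 of 8, in each WT TM library and in 12.5% to 25% in WT TE libraries (exact permutation p = 0.429, adjusted 0.571). The 8 WT libraries held 6.55% to 46.98% of the other regions of 4 libraries and 0.444% to 3.35% of all regions. With the best 2270 peaks the TE-only regions were held by no WT TM library and at 12.5%, 1 of 8, by each WT TE library (exact permutation p = 0.0286, adjusted 0.0762). The other regions of 4 libraries went the same way there, at 3.04% in WT TM and 16.7% in WT TE. The share of TE-only regions minus that of those others had a mean of -3.04 points in WT TM and -4.24 in WT TE (exact permutation p = 0.457, adjusted 0.914 over 4 tests). The Gm49792 repeat was in 3 WT TE and no WT TM libraries, the Sec11a promoter in 3 and 2, and 5031439G07Rik in none and 2. The remaining 5 were in no WT list.

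**Figure D5:**
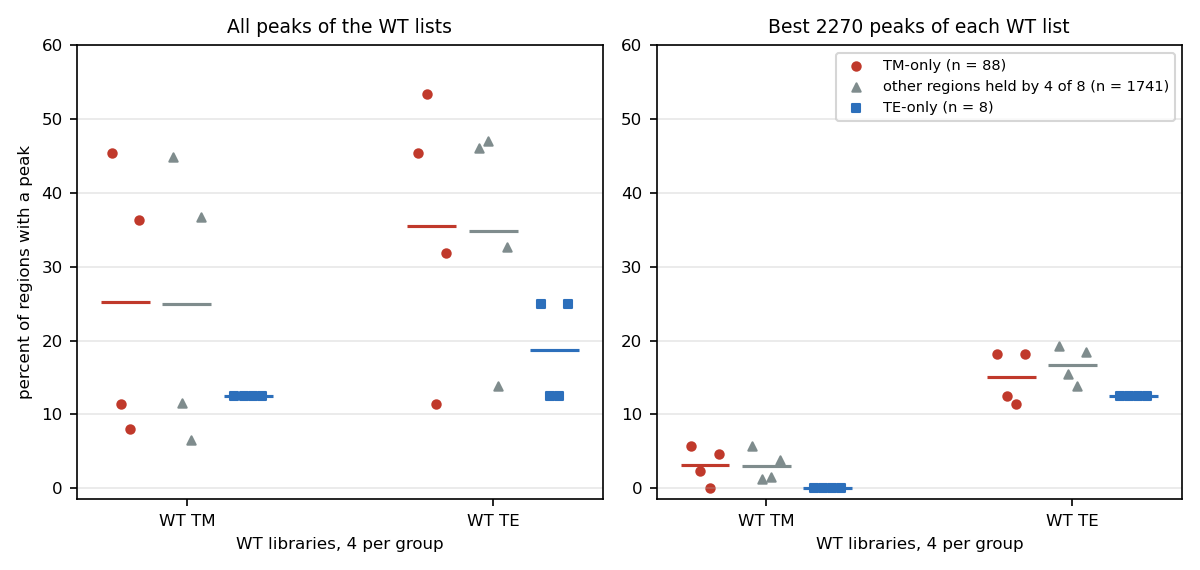
Share of TM-only (n = 88), TE-only (n = 8) and other regions held by exactly 4 TPdh-/- libraries (n = 1741) that had a peak in each WT library (percent), with all peaks (left) and with the best 2270 peaks of each WT list (right). Points are libraries and lines are means of 4. TM-only regions sit beside the other regions in every WT library and lie higher in WT TE than in WT TM on the right.

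Genes were then compared by whether a library had any peak within the gene or its flanks of 5000 bp. Of 20807 autosomal coding genes, 19920 had a peak in at least 1 library. All 4 TM and no TE libraries held 84 genes (0.422%), and all 4 TE and no TM libraries held 11 (0.0552%). Fisher's exact test with Benjamini-Hochberg adjustment called 0 genes, and could have called any only if most of the genes tested were at the smallest p, while 95 genes had an unadjusted p under 0.05, where the smallest p is 0.0286 for 4 against 4. Counting only summits within 1000 bp of a start, 83 genes were held by all TM alone (0.57% of 14574) and 4 by all TE alone (0.0274%). With lists of equal size the counts were 51 (0.272%) and 35 (0.187%) for whole genes, and 49 (0.411%) and 5 (0.042%) for starts. The lean to TM for whole genes went from 84 against 11 to 51 against 35 when lists had the same size, and at starts from 83 against 4 to 49 against 5. Without 1 library, 118 to 292 whole genes were held by all TM alone and 22 to 45 by all TE alone.

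Functional lists leaned to TM, as did all genes. Over 17 lists of 300 genes, 156 genes (52%) were held by more TM than TE libraries and 38 (12.7%) by more TE, against 46.4% and 18.6% of all genes with a peak. In equal-sized lists the shares were 40.3% and 26.3%, against 36.7% and 32.3%. A difference of 3 or more libraries toward TM was seen for 16 of the 300 and for 4.31% of all genes, and toward TE for 1 and for 0.843%. With equal-sized lists 10 and 4 of the 300 differed so, against 2.99% and 2.08%. With all peaks the median difference was 1 library over the 300 genes and 0 over all genes, and in equal-sized lists it was 0 over both.

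T cell identity genes were held by more TM libraries in 9 of 16 cases, by more TE libraries in none and equally in 7. With equal-sized lists these counts were 10, 3 and 3. Cd247, Cd28, Ptprc and Lcp2, which encode a chain of the receptor complex, a costimulator, CD45 and an adaptor of receptor signalling, were held by all 8 libraries. Cd8a and Cd3d, which encode parts of CD8 and of CD3, were held by 2 TM and 2 TE libraries. Cd3e was held by 3 and 2, Cd3g by 2 and 1, Cd8b1 by 4 and 2, and Cd5 by 3 and 3. The kinase genes Lck and Zap70 were held by 3 and 1 and by 4 and 2, the surface genes Thy1 and Cd2 each by 3 and 1, and Lat by 2 and 1. None of these differences reached 3 libraries.

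Memory, homing and cytokine genes included a few that leaned to TM by 3 libraries. With all peaks such a lean of 3 or more was seen in 5.33% of the 300 listed genes and in 4.31% of all genes. Id3, an inhibitor of E proteins linked to memory, had 3, 7 and 4 fragments in TM replicates 1 to 3 and no peak in TM replicate 4 or in TE. S1pr1, the receptor that lets T cells leave lymph nodes, had 9, 3, 5 and 6 in TM and 6 in TE replicate 4. S1pr5, a related receptor, had 5, 6 and 3 in TM replicates 1, 3 and 4 and no peak in TE. Tnf, an inflammatory cytokine gene, had 7, 4, 8 and 3 in TM and 7 in TE replicate 4. Il12rb1, a receptor chain for interleukin-12, had 4, 4, 7 and 4 in TM and 4 in TE replicate 3, and the AP-1 related gene Atf3 had 4, 4, 8 and 10 and again 4. Lamp1, a lysosome protein shown on degranulating cells, had 5, 8, 5 and 8 in TM and 5 in TE replicate 1. Most of these pileups were close to the lowest that a list called. In equal-sized lists most of these differences shrank, with Id3 held by 1 TM and 0 TE lists, S1pr1 and Tnf each by 2 and 1, Il12rb1 by 1 and 0 and S1pr5 by 2 and 0, whereas Atf3 was held by 3 and 0 and Lamp1 by 4 and 1.

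Metabolic genes had a like pattern. Lias, which makes the lipoate cofactor of pyruvate dehydrogenase, had 5, 5 and 4 fragments in TM replicates 2 to 4 and no peak in TE. Idh3a, a TCA cycle dehydrogenase gene, had 3, 3, 5 and 9 in TM and 4 in TE replicate 3, and Tpi1, of glycolysis, had 7, 5, 7 and 9 in TM and 7 in TE replicate 4. In fatty acid oxidation Crot had a TE peak of 7 fragments elsewhere in the gene, in replicate 4, and Acaa1a, a peroxisomal thiolase gene, had 7, 5, 6 and 7 in TM and 13 in TE replicate 3. Asns, which makes asparagine from glutamine, had 4, 5, 4 and 5 in TM and no peak in TE, and Slc3a2, a chain of amino acid transporters, had 4, 4, 5 and 6 in TM and 6 in TE replicate 3. In equal-sized lists Lias and Idh3a were held by 2 TM and 0 TE lists each, Slc3a2 by 2 and 1, Asns by 3 and 0, and Tpi1, Crot and Acaa1a by 4 and 1. Over whole lists, TM libraries held more of the genes in 16 of 26 TCA cycle and acetyl-CoA genes, 12 of 22 glycolysis genes, 13 of 23 fatty acid oxidation genes, 7 of 14 pyruvate entry genes and 5 of 15 glutamine genes. TE libraries held more in 2, 2, 5, 2 and 4. With equal-sized lists the counts toward TM and TE were 9 and 6, 8 and 6, 10 and 7, 5 and 2, and 3 and 8. Glutamine genes thus leaned to TE then over whole genes, but at starts in the same lists they were 4 and 3. These counts were not tested.

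Chromatin genes went both ways. Hdac3, a histone deacetylase gene, had 4, 4, 7 and 7 fragments in TM and no peak in TE, and Ehmt2, a histone H3 methyltransferase gene, had 4, 4 and 8 in TM replicates 1 to 3 and none in TE. With all peaks Kat2a, a histone acetyltransferase gene, was the single member of all lists that leaned to TE by 3 libraries. It had 5, 4, 8 and 5 in TE and 4 in TM replicate 2. In equal-sized lists Hdac3 was held by 2 TM and 0 TE lists, Ehmt2 by 1 and 0 and Kat2a by 0 and 3. There, 4 of the 300 listed genes leaned to TE by 3 or more lists and 10 to TM. Among histone and DNA methylation genes, 1 was held by all 4 TE and no TM lists, and 0 in the reverse case. Over the lists, 14 of 27 histone acetylation genes and 14 of 25 histone and DNA methylation genes were held by more TM libraries, and 3 and 1 by more TE libraries. With equal-sized lists these counts were 13 and 11 toward TM and 8 and 7 toward TE.

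The other lists were described in the same way, as genes held by more TM and by more TE libraries. These were 9 and 2 of 20 memory and quiescence genes, 8 and 3 of 17 effector factors and cytokines, 6 and 3 of 16 cytotoxic granule genes and 8 and 2 of 15 killer cell lectin-like receptors. They were 9 and 1 of 17 cytokine receptor signalling genes, 7 and 2 of 19 homing genes, 8 and 2 of 13 inhibitory receptors, 9 and 3 of 14 AP-1 genes and 8 and 1 of 10 widely expressed genes. With equal-sized lists the same counts, in the same order, were 7 and 3, 7 and 7, 5 and 7, and 4 and 2 for the first 4 lists. They were 8 and 5, 5 and 6, 7 and 2, 8 and 0, and 5 and 2 for the others. These small counts were not tested. With all peaks the median of TM minus TE libraries was 0 for memory, effector, cytotoxic granule and homing genes, and 1 for the rest. With equal-sized lists it was 1 for inhibitory receptors and AP-1 genes, 0.5 for widely expressed genes, and 0 for the rest.

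Marker genes of T cells did not stand out in these peaks. The median marker of CD8 T cells was held by 3 TM and 2 TE libraries, of memory T cells by 3 and 3, of effector T cells by 2 and 2.5, of CD4 T cells by 4 and 3, of B cells by 3 and 1, of myeloid cells by 2 and 3, of NK cells by 1.5 and 1 and of erythroid cells by 1 and 2. Markers of unrelated tissues were held by 2 and 2. Zbtb7b, the CD4 lineage factor, had 5, 3, 6 and 10 in TM and 7 in TE replicate 4. The medians of unrelated tissues lay within the range of the T cell lists, and the part of other cells in the results was not tested. Pdha1, on X and so outside the rule, had peaks of 3, 6 and 6 fragments in TM replicates 2 to 4 and of 5 and 4 in TE replicates 1 and 3, and such peaks do not check the deletion.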

How the data were processed

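Peak lists of 16 ATAC-seq libraries were deposited, and those of 4 TPdh-/- TM and 4 TPdh-/- TE libraries were compared, with the 8 WT lists, which took part in merging regions but were not counted in the calls. Groups and replicate numbers came from sample titles. Per the labels and the study's methods, the authors trimmed reads with Trimmomatic, aligned them to GRCm38 with BWA 0.7.17, removed reads with other alignments and those in blacklisted regions, and called peaks per library with MACS2 2.2.7.1 on read-pair fragments. A control library and a shift for the transposase cut were not given in the sources used here. The authors deposited 4 values per peak, namely a score, a fold enrichment (a ratio to the local background), a −log10 p-value and a −log10 q-value. None is scaled between libraries, and longer or deeper lists reach weaker peaks.

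Here, summit fragments were solved from fold enrichment and the Poisson p-value, within a tolerance of 0.001, and background coverage was the low end of the solved backgrounds. Read totals were not analysed here. Regions were merged peaks of all 16 autosomal lists, and a library held a region by an overlap of 1 bp. Equal-sized lists took the best 32144 peaks by q-value, the length of TE replicate 2, with ties broken by fold enrichment. Genes came from the GENCODE annotation of the build and sequence from RefSeq for GRCm38. Values per library were tested by two-sided exact permutation over 70 arrangements (smallest p 0.0286), adjusted by Benjamini and Hochberg, and genes by Fisher's exact test over all genes with a peak. The region, pileup and test steps were tested on simulated data, and all were run in Python 3.11.15 with NumPy 2.4.6, pandas 2.3.3 and SciPy 1.17.1, and plotted with matplotlib 3.10.9.

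Regions were named by rank, 10 TM-only promoters, 5 other TM-only regions, up to 12 TE-only regions and up to 8 of each class in equal-sized lists. Genes were named when a listed gene differed by 3 or more libraries or was a T cell identity gene, with Pdha1 as the targeted gene. The members and lists were chosen with earlier results of these data known. Alternatives were other thresholds, overlaps, list lengths and windows, leaving out each library, and the replicate block. Some named genes and sequences are not reported here.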

Additional observations from a re-analysis of the deposited data

Results flagged for a closer look

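The 55 groups of 4 values examined were of summit pileups, of peak numbers and positions per library, and of shares held by WT libraries. Of these, 6 held a library apart from the other 3 by the gap to the nearest value relative to the range. All 6 were groups of summit pileups. For continuous values chance does this in about 1 group in 20, but with small whole numbers any group with 3 equal values meets it whatever the gap, as 5 of these 6 did. At the TM-only promoter of Nudt9, TM replicate 2 had 8 fragments and the others 10 each. At Slc46a3, TM replicate 2 had 8 and the others 6 each, and at Lancl1 it had 10 and the others 8 each. At the TE-only promoter of Sec11a, TE replicate 4 had 11 fragments and the others 4 or 5. At C130026I21Rik, TE replicate 2 had 6 and the others 5 each, and at Gm25959, TE replicate 3 had 5 and the others 4 each. Most of these gaps are of 1 or 2 fragments.

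The difference between TM and TE was not the same in TPdh-/- and WT for 4 of 5 measures. The sum of a genotype effect and a cell type effect was first subtracted from each library. Genotype labels of the remainders were then exchanged within TM and within TE over 4900 arrangements, with p-values adjusted over 5 tests. TM minus TE in the promoter share was 1.61 points in TPdh-/- and -44.9 points in WT, a difference of 46.5 points (permutation p = 0.00204, adjusted 0.00255). In lists of 2270 peaks it was 9.13 points in TPdh-/- and -59.0 points in WT, a difference of 68.1 points (permutation p = 0.000408, adjusted 0.00204). Intron shares differed by -20.9 points and intergenic shares by -24.7 points between the genotypes (permutation p = 0.00204, adjusted 0.00255, for each). The promoter share of the WT TE lists was 56.97% ± 20.5 (SD, n = 4), against 10.3% to 12.1% in the means of the other groups. Coverage in WT TE, 0.636 to 1.55, was also above the 0.173 to 0.572 of the other libraries, and its part in the difference was not tested.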

How the results depend on the processing

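TM-only regions outnumbered TE-only regions under each alternative except without TE replicate 2, and the counts moved. With all peaks, TM-only and TE-only counts were 33 and 5 with summits within 100 bp, 357 and 21 when 1 library of the other group was allowed, 19 and 1 with −log10 q of at least 5, 37 and 3 with a fold enrichment of at least 5, and 42 and 4 with at least 5 fragments. Chosen after seeing the data, a minimum of pileup over coverage at the highest floor of the 8 libraries gave 135 and 1. They ranged from 93 to 293 and from 8 to 147 without 1 library, and without TE replicate 2 there were 147 TE-only and 93 TM-only regions. In equal-sized lists the TM-only count was 23 with close summits, and the counts were 207 and 21 with 1 other library allowed, 7 and 2 in lists of 2270, 12 and 2 in the best 5000, 25 and 3 in the best 10000, and 57 to 177 and 10 to 110 without 1 library, with 57 and 110 without TE replicate 2. Genes held by 1 group alone numbered 39 and 1 with −log10 q of at least 5, 51 and 35 in equal-sized lists, 4 for TE at starts, and 118 to 292 and 22 to 45 without 1 library. The smallest p that 4 against 4 libraries allow per gene is 0.0286, and any gene could pass adjustment only if most genes tested were at that p, so the count of 0 genes in these alternatives says nothing of stability.

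Per library, the difference in log2 peaks ranged from 0.35 to 0.76 without 1 library. The promoter share difference ranged from 0.743 to 2.72 points, in equal-sized lists from 1.84 to 4.76 without 1 library. It was 7.16 points with −log10 q of at least 5 and 9.13 in lists of 2270 (exact permutation p = 0.143 and 0.171). Without 1 library the intron difference ranged from -2.31 to -0.954 and the intergenic difference from -0.636 to 0.00454, which turned positive without TE replicate 2. In WT lists of equal size the shares of TM-only and TE-only regions differed by -11.9 and -12.5 points (exact permutation p = 0.0286 each). With all peaks of the WT lists they differed by -18.3 to -4.26 and -8.33 to -4.17 without 1 WT library. Same-numbered libraries did not deviate together (correlations of 0.010 to 0.030, and none over 0.1). As most regions had a peak in a single library, such correlations cannot show whether the numbers pair libraries. With the replicate block the exact permutation p was 0.375 for the difference of 0.52 in log2 peaks, 0.125 for the promoter differences of 1.61 and 3.15 points, 0.125 for the intron difference of -1.60, 0.5 for the intergenic difference of -0.257, and 0.75 and 0.5 for the WT differences of -10.2 and -6.25 points, with a smallest possible p of 0.125, and it changed no call. The causes of these shifts were not tested.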
